A study of Homo sapiens with 18 samples.

Results

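The human mitochondrial genome, a circular DNA molecule of 16569 bases in the GRCh37 reference, codes for 37 genes, and all 37 were found in the count table by the prefix MT- of their symbol, among 55766 genes listed. They comprise 2 ribosomal RNAs (rRNA), 13 messenger RNAs (mRNA) and 22 transfer RNAs (tRNA). Counts came from 9 RNA-seq libraries of K562, an established human leukaemia cell line. All 9 libraries, controls included, came from cells with a B2M:tdTomato transgene, a red fluorescent reporter of the gene for beta-2 microglobulin. In 3 libraries the transgene had been silenced with TALE proteins and in 3 with dCas9, and 3 libraries were of untreated cells. Both are DNA-binding proteins that can be programmed to a chosen sequence. Per the labels, the treatment was a mixture of 3 plasmids for different repressors, 1 of them based on D3A, and a guide RNA plasmid was added for dCas9. The titles call the control cells untreated and describe no control plasmid, so effects of the plasmid mixture itself and of the silencing cannot be told apart. The interval between treatment and collection is not in the labels, nor whether the cells of a group were a single clone. Matching libraries of methylated DNA (MeDIP-seq, 9 libraries) are described last.

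Mitochondrial DNA is transcribed in long precursors from each of its strands, and most genes lie on the transcript named after the heavy strand. The tRNAs sit between the mRNAs and rRNAs, and their excision releases the other RNAs. The mRNAs code for core subunits of respiratory complexes I, III and IV and of the ATP synthase, while all proteins that copy, transcribe and translate the genome come from the nucleus. In the GENCODE annotation on GRCh37, 28 of the genes lie on the plus strand of chromosome M and 9 on the minus strand. The minus-strand genes are MT-ND6 and 8 tRNAs. Together the genes cover 92.7% of the molecule.

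Genes are packed so closely that some share bases, and a read from such a stretch belongs to both genes. The 2 longest overlaps are shown because they set how far the counts of 4 mRNAs can be separated. MT-ATP8 and MT-ATP6 share 46 bases (chrM:8527-8572), of the 207 bases of MT-ATP8, and MT-ND4L and MT-ND4 share 7 (chrM:10760-10766). Sequences are from the GRCh37 reference, plus strand, 5′ to 3′, over chrM:8512-8587 and chrM:10745-10781. Capitals mark the bases that lie in both genes.
MT-ATP8/MT-ATP6: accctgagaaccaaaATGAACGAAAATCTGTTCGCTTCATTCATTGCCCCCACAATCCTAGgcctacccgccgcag
MT-ND4L/MT-ND4: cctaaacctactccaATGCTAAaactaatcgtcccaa
In both cases the shared stretch opens with the ATG at the start of the downstream gene. How the authors' counting treated these bases is not given in the sources used here, and neither is its use of strand. Reads from the 2 strands of 1 stretch therefore cannot be told apart, which bears on MT-ND6 and the minus-strand tRNAs.

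For the tRNAs, the 3 genes with the highest and the 3 with the lowest level per length are shown, since the span between them is the widest within any class. Capitals mark the tRNA gene, with 8 bases of flank on each side, 5′ to 3′ on the coding strand. The first 4 are on the plus strand, at chrM:3222-3312, chrM:15880-15961, chrM:4255-4339 and chrM:1594-1678. The last 2 are on the minus strand, at chrM:5753-5834 and chrM:5649-5737.
MT-TL1: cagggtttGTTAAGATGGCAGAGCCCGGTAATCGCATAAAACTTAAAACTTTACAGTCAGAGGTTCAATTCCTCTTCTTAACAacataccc
MT-TT: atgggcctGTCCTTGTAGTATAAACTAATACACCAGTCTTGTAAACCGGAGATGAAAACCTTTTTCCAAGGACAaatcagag
MT-TI: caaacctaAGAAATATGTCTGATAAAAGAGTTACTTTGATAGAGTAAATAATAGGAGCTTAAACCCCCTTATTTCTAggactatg
MT-TV: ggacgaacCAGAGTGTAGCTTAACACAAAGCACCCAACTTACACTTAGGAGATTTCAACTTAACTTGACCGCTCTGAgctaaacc
MT-TC: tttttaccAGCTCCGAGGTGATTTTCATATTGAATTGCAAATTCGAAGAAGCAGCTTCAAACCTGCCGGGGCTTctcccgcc
MT-TN: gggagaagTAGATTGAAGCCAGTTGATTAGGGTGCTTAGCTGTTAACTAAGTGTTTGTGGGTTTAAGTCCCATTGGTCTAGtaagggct
MT-TL1 (leucine, anticodon for UUR codons), MT-TT (threonine) and MT-TI (isoleucine) follow MT-RNR2, MT-CYB and MT-ND1 on the heavy-strand transcript. MT-TV (valine) lies between the 2 rRNA genes, and MT-TC (cysteine) and MT-TN (asparagine) belong to a cluster of minus-strand tRNAs.

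Library totals lay between 8460076 and 12050554 counts. The silencing target checked the labels. B2M had 2 to 7 counts in each of the 6 silenced libraries and 48 to 79 in each untreated library, and the transgene entry stood at 12.5 to 19.0 CPM (counts per 1e6 counts, scaled by TMM factors) in silenced and 359 to 393 CPM in untreated libraries. Erythroid genes that mark K562 cells were present, with means over the 9 libraries of 3751 CPM for the fetal globin gene HBG2, 962 CPM for HBG1 and 101 CPM for GATA1, an erythroid transcription factor. Of the markers of other cell types, CD3E and MS4A1 (lymphoid) and CDH1 and CDH5 (epithelial and endothelial) had means under 1 CPM. COL1A1 and COL1A2 (fibroblast) had 1.84 and 5.77 CPM, and EPCAM (epithelial) had 105 CPM.

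Nearly all mitochondrial counts were from mRNAs. The 13 mRNAs took 93.2% to 95.8% of the mitochondrial counts of each library, the 2 rRNAs 4.09% to 6.68%, and the 22 tRNAs 0.0883% to 0.118%. MT-CO1, with 1206667 counts over the 9 libraries, had the second highest total of all genes in the table, and MT-ND4 the third. Of the mRNAs, MT-ND6 had the lowest total, 46408 counts. What the library preparation removed before amplification was not given in the sources used here, so the low share of rRNA and of tRNA describes these libraries, not the cells.

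Per kilobase of gene length, the mean level over the 9 libraries differed widely between genes. MT-ATP8 and MT-CO2 stood highest, at 16183 and 15191 CPM per kb. In untreated libraries MT-ATP8 had 17131 ± 3651 CPM per kb (SD, n = 3) and MT-CO2 16098 ± 2842. Their order differed between libraries. MT-ATP8 was the higher in all 3 untreated libraries, but the lower in TALE replicates 2 and 3 and in dCas9 replicate 1. MT-ATP6 followed at 10837 CPM per kb. A close group of 4 came next, MT-CO1 at 8758, MT-ND4 at 8757, MT-CO3 at 8613 and MT-ND4L at 8234 CPM per kb. Below them were MT-ND2 at 6372, MT-ND1 at 5750 and MT-ND3 at 4828 CPM per kb. MT-ND5 at 3363 and MT-CYB at 3233 CPM per kb were again in no fixed order. MT-ND5 was the lower in all TALE libraries and in replicate 1 of both other groups. Both rRNAs lay below these mRNAs, MT-RNR1 at 1837 and MT-RNR2 at 1769 CPM per kb. MT-ND6, the only mRNA on the minus strand, had 995 CPM per kb. Every tRNA lay under every mRNA and rRNA, from 227 CPM per kb for MT-TL1 to 0.315 for MT-TN.

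**Figure D1:**
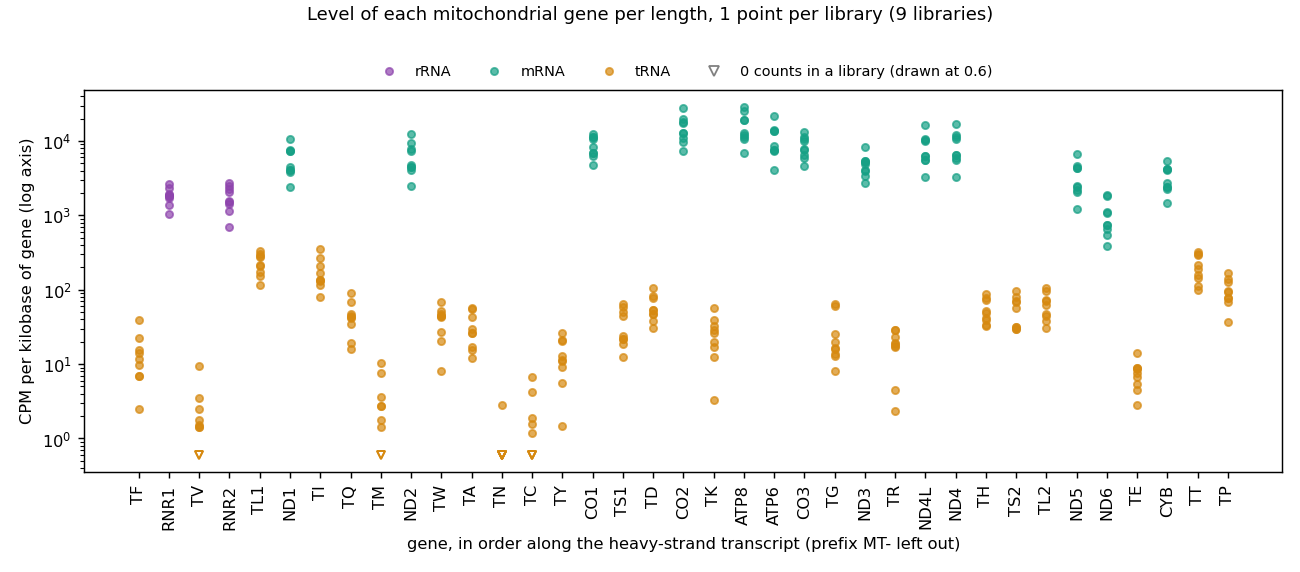
Level of each of the 37 mitochondrial genes in each of the 9 libraries, in CPM per kilobase of gene on a log axis, in order along the genome. Points are libraries, colours are classes, and open triangles are libraries with 0 counts, drawn at 0.6. The mRNAs other than MT-ND6 lie highest, MT-ND6 lies below both rRNAs, and the tRNAs spread from 227 CPM per kb (MT-TL1) to 0.315 (MT-TN).

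The share of counts from the mitochondrial genome differed between libraries, and much of that difference lay within groups. The 13 mRNAs took 6.74%, 9.66% and 9.64% of all counts in untreated replicates 1, 2 and 3. In the TALE libraries they took 5.66%, 3.81% and 5.89%, all below the lowest untreated library. In the dCas9 libraries they took 5.75%, 13.4% and 10.3%, so this group held a library below every untreated one and 2 libraries above. Group means were 8.68% ± 1.68 (SD, n = 3) for untreated, 5.12% ± 1.14 for TALE and 9.82% ± 3.86 for dCas9.

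The rRNA share was 0.402%, 0.611% and 0.553% in the untreated replicates, 0.333%, 0.226% and 0.422% in the TALE replicates, and 0.390%, 0.573% and 0.494% in the dCas9 replicates. TALE replicate 3 lay inside the untreated range, so these groups overlapped. The tRNA share was 0.00687%, 0.00969% and 0.0109% in untreated, 0.00559%, 0.00460% and 0.00558% in TALE, and 0.00724%, 0.0126% and 0.0106% in dCas9 libraries. Its TALE range lay below both other ranges. In bulk RNA, fewer mitochondrial transcripts per cell and more of other RNA cannot be told apart, since each share is relative to the rest of the library.

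**Figure D2:**
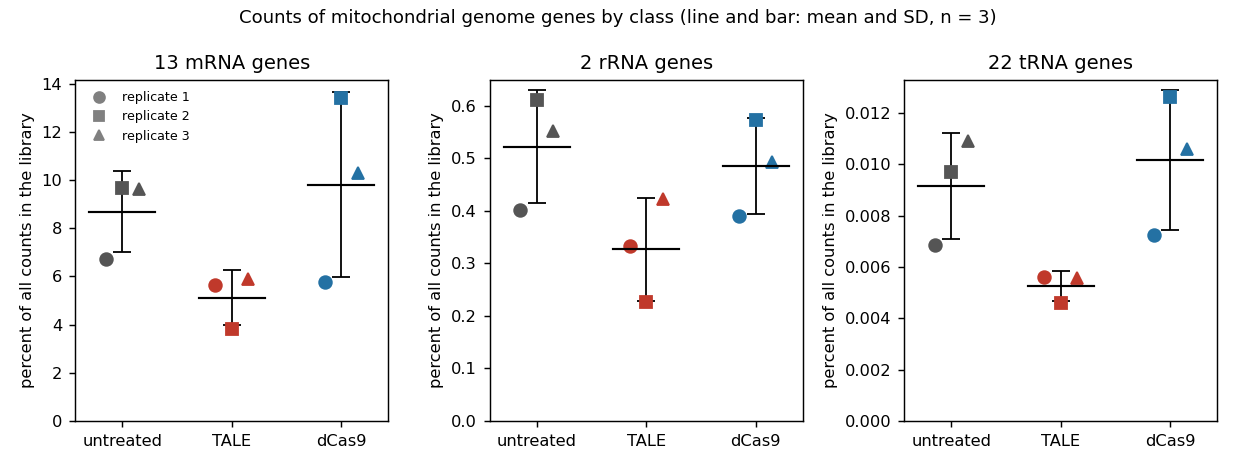
Percent of all counts of a library taken by the 13 mRNAs, the 2 rRNAs and the 22 tRNAs (3 panels with their own y axes from 0). Each point is a library, marked by replicate, and the line and bar are the mean and SD of 3 libraries; the TALE libraries hold 3.81% to 5.89% in the mRNA panel and the dCas9 libraries 5.75% to 13.4%.

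This spread between replicates was wide for genes of such depth. The within-group SD of log2 CPM had a median of 0.54 over the 13 mRNAs, from 0.33 for MT-CO1 to 0.58 for MT-ATP6. Over all 13786 genes tested the median was 0.20, and over 2045 other genes with a mean above 100 CPM it was 0.15. Of those 2045 genes, 4 (0.196%) had an SD above the median of the mitochondrial mRNAs. Every mRNA had at least 2655 counts in each library, while 19 of the 22 tRNAs stayed under 100 counts in each, where counting error adds to the spread.

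Each gene was tested with edgeR's quasi-likelihood test in 1 model over all genes that passed the filter on low counts, with p-values adjusted by Benjamini-Hochberg over the 13786 genes tested. Of the 37 mitochondrial genes, 32 passed that filter, including both rRNAs, all 13 mRNAs and 17 tRNAs. MT-TE, MT-TM, MT-TV, MT-TC and MT-TN did not. The rarer tRNAs passed through the libraries in which they were high, so what is said of tested tRNAs is a description of those 17. No mitochondrial gene was called at an adjusted p under 0.05 in any contrast, and DESeq2 also called 0. Few other genes were called by edgeR. With untreated libraries as the reference, 0.0218% of genes tested were called in TALE, 0.0290% in dCas9 and 0.0363% in the mean of both silenced groups. Between TALE and dCas9 libraries the share was 0%. Without the filter on low counts, 19 mitochondrial genes were called lower in TALE than in untreated libraries, 22 lower in TALE than in dCas9, and 1 higher in dCas9 than in untreated. The shares of all 41469 genes called there were 0.178%, 0.186% and 0.215%. The labels do not say that replicates are separate cultures, so all p-values here measure only the spread between these samples. The 2 contrasts with untreated share the same 3 control libraries, and their values are therefore given side by side only.

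For TALE against untreated, 27 of the 32 mitochondrial genes tested were lower with an unadjusted p under 0.05, against 4.29% of all genes tested. For 21 of the 32, the 3 TALE libraries lay below the 3 untreated libraries without overlap, against 6.44% of all genes. The genes are read from the same few transcripts and shared the library differences described above, so they are not independent. The median log2 fold change was −0.86 over the mRNAs (−1.03 for MT-ND5 to −0.63 for MT-ND3), −0.73 over the rRNAs and −0.91 over the tRNAs tested. It was 0.00 over all genes tested, with an interquartile range of −0.15 to 0.13. The smallest adjusted p was 0.234, for MT-TL1. Without TALE replicate 2, the library with the lowest mitochondrial share, 14 of the 32 genes had an unadjusted p under 0.05.

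For dCas9 against untreated, 4 of the 32 (MT-TF, MT-TG, MT-ND6 and MT-TQ) were higher with an unadjusted p under 0.05, against 3.10% of genes tested. Only MT-TQ had dCas9 libraries all above the untreated ones, against 5.60% of genes tested. Class medians of the log2 fold change were 0.24 for mRNAs (−0.04 for MT-CO1 to 0.65 for MT-ND6), −0.13 for rRNAs and 0.24 for tRNAs. The smallest adjusted p was 0.585, for MT-TF. Leaving out dCas9 replicate 2 moved the mRNA median to −0.15 and the count of 4 genes to 0, and leaving out untreated replicate 1 moved them to 0.05 and 0. Leaving out dCas9 replicate 1 moved the median to 0.54 and the count to 10, and without dCas9 replicate 3 the count was 1. With at least 10 counts required in every library, the count was 2 of 25 mitochondrial genes tested. MT-TF, with 2, 8 and 4 counts in untreated libraries, did not pass that filter.

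TALE against dCas9 was tested directly. Here 30 of the 32 genes were lower in TALE with an unadjusted p under 0.05, against 3.79% of genes tested, and 16 did not overlap, against 4.50%. The class medians were −1.13 for mRNAs, −0.60 for rRNAs and −1.14 for tRNAs, and the smallest adjusted p was 0.511. Leaving out dCas9 replicate 1, the library of that group with the lowest mitochondrial share, brought 11 of the 32 genes to an adjusted p under 0.05, with a smallest value of 0.00493, where 21 of all 14057 genes then tested (0.149%) were called. For the mean of both silenced groups against untreated, 5 of 32 genes were lower with an unadjusted p under 0.05, against 3.66% of genes tested. The smallest adjusted p there was 0.442, for MT-TA. Leaving out dCas9 replicate 2 moved that count to 17, untreated replicate 1 to 11, TALE replicate 3 to 9, untreated replicate 2 to 3, and untreated replicate 3 to 2.

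**Figure D3:**
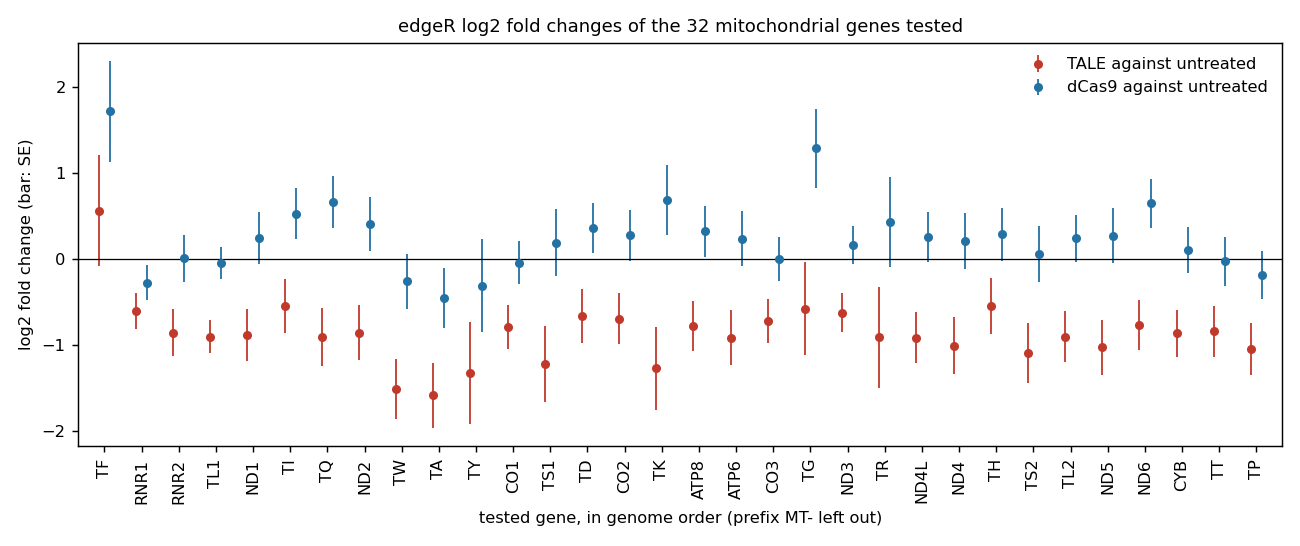
edgeR log2 fold change with its SE for the 32 mitochondrial genes tested, in genome order, for TALE against untreated (red) and dCas9 against untreated (blue). The mRNAs lie between −1.03 and −0.63 for TALE and between −0.04 and 0.65 for dCas9, and none of the genes was called in either contrast.

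The 2 rRNAs form the small and the large subunit of the mitochondrial ribosome. MT-RNR1, the 12S rRNA, lies at chrM:648-1601. It had 1611, 2509 and 2231 CPM in untreated replicates 1, 2 and 3, 1334, 999 and 1841 CPM in the TALE replicates, and 1721, 1787 and 1740 CPM in the dCas9 replicates. The dCas9 libraries lay close together for this gene (1749 ± 33.9 CPM, SD, n = 3), although their mRNA shares ran from 5.75% to 13.4%. MT-RNR2, the 16S rRNA, lies at chrM:1671-3229. It had 2336, 3876 and 3489 CPM in untreated, 1811, 1100 and 2440 CPM in TALE, and 2249, 4306 and 3212 CPM in dCas9 libraries, and the ranges of all groups overlapped.

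The ratio of MT-RNR1 to MT-RNR2 counts was 0.690, 0.647 and 0.639 in untreated, 0.737, 0.908 and 0.754 in TALE, and 0.765, 0.415 and 0.542 in dCas9 libraries. It was highest in the library with the lowest mitochondrial share (TALE replicate 2) and lowest in the library with the highest (dCas9 replicate 2). The rRNA counts were 5.74% to 6.32% of the mRNA counts in untreated, 5.88% to 7.16% in TALE and 4.26% to 6.78% in dCas9 libraries. By edgeR's test, MT-RNR1 had a log2 fold change of −0.61 ± 0.21 (SE) for TALE against untreated and MT-RNR2 −0.86 ± 0.27, with adjusted p-values of 0.585 and 0.545.

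Complex I, the NADH dehydrogenase that takes electrons from NADH, has 7 subunits coded by mitochondrial DNA. MT-ND1, at chrM:3307-4262, had 4273, 6942 and 6937 CPM in untreated, 3649, 2274 and 3888 CPM in TALE and 3887, 10289 and 7330 CPM in dCas9 libraries. MT-ND2, at chrM:4470-5511, had 4957, 8063 and 7735 CPM in untreated, 4310, 2559 and 4597 CPM in TALE and 4588, 13071 and 9874 CPM in dCas9 libraries. In both genes every TALE library lay below every untreated one, while the dCas9 libraries lay on both sides.

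MT-ND3, at chrM:10059-10404, had 1690, 1880 and 1861 CPM in untreated libraries. It had 1158, 934 and 1426 CPM in TALE and 1348, 2917 and 1820 CPM in dCas9 libraries. Relative to their mean its untreated libraries were closer together (1810 ± 105 CPM, SD, n = 3) than those of the other mRNAs, and they did not overlap with the TALE libraries.

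MT-ND4L and MT-ND4 are neighbours on 1 transcript and share the 7 bases shown above. MT-ND4L, at chrM:10470-10766, had 1879, 3136 and 3051 CPM in untreated, 1669, 960 and 1651 CPM in TALE and 1840, 4822 and 3003 CPM in dCas9 libraries. MT-ND4, at chrM:10760-12137, had 9011, 16347 and 15546 CPM in untreated, 7717, 4540 and 8105 CPM in TALE and 8978, 23504 and 14852 CPM in dCas9 libraries. For both genes the TALE libraries lay below all 6 other libraries.

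MT-ND5, at chrM:12337-14148, is the longest of the mRNAs. It had 4517, 7920 and 7875 CPM in untreated, 3793, 2227 and 3950 CPM in TALE and 4311, 12015 and 8233 CPM in dCas9 libraries, with TALE again below all 6 other libraries. Its log2 fold change for TALE against untreated was −1.03 ± 0.32 (SE, edgeR), the furthest from 0 among the mRNAs, with an adjusted p of 0.545.

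MT-ND6, at chrM:14149-14673, is the mRNA of the light-strand transcript and faces MT-ND5 tail to tail. It had 345, 577 and 569 CPM in untreated, 384, 205 and 287 CPM in TALE and 387, 990 and 961 CPM in dCas9 libraries. TALE replicate 1 lay inside the untreated range, and all 3 TALE libraries lay below the lowest dCas9 library, TALE replicate 1 only just. By edgeR's test the log2 fold change was 0.65 ± 0.29 (SE) for dCas9 against untreated (adjusted p = 0.799) and −1.42 ± 0.29 for TALE against dCas9 (adjusted p = 0.511). Relative to MT-ND5, MT-ND6 counts were 7.63%, 7.28% and 7.22% in untreated, 10.1%, 9.19% and 7.25% in TALE and 8.97%, 8.24% and 11.7% in dCas9 libraries. The untreated libraries were close together, and the dCas9 libraries all lay above them.

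Complex III, which passes electrons from ubiquinol to cytochrome c, has MT-CYB (cytochrome b) as its only mitochondrially coded subunit. MT-CYB, at chrM:14747-15887, had 3131, 4755 and 4770 CPM in untreated, 2560, 1649 and 2736 CPM in TALE and 2736, 6225 and 4637 CPM in dCas9 libraries. Every TALE library lay below every untreated one, with a log2 fold change of −0.87 ± 0.27 (SE) and an adjusted p of 0.545 by edgeR's test.

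Complex IV is cytochrome c oxidase, whose catalytic core is formed by MT-CO1, MT-CO2 and MT-CO3. MT-CO1, at chrM:5904-7445, had 12985, 17212 and 17439 CPM in untreated, 9613, 7264 and 10744 CPM in TALE and 10689, 19341 and 16255 CPM in dCas9 libraries. MT-CO2, at chrM:7586-8269, had 8770, 12238 and 12024 CPM in untreated, 6605, 5008 and 8800 CPM in TALE and 7412, 18951 and 13710 CPM in dCas9 libraries. MT-CO3, at chrM:9207-9990, had 6093, 8408 and 8777 CPM in untreated, 4629, 3582 and 5922 CPM in TALE and 5112, 10393 and 7855 CPM in dCas9 libraries. The TALE and untreated ranges did not overlap for MT-CO1 and MT-CO3. For MT-CO2 they met, since TALE replicate 3 stood at 8800 and untreated replicate 1 at 8770 CPM.

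The ATP synthase, complex V, has MT-ATP6 and MT-ATP8 in its membrane part, both translated from 1 mRNA. MT-ATP8, at chrM:8366-8572, had 2674, 3990 and 3975 CPM in untreated, 2330, 1413 and 2460 CPM in TALE and 2209, 5840 and 5259 CPM in dCas9 libraries. MT-ATP6, at chrM:8527-9207, had 5807, 9571 and 9141 CPM in untreated, 5025, 2770 and 5217 CPM in TALE and 5087, 14558 and 9242 CPM in dCas9 libraries. Both had every TALE library below every untreated one, and log2 fold changes of −0.78 ± 0.30 and −0.91 ± 0.32 (SE).

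Within the mRNAs, the make-up also varied between libraries. MT-CO1 took 18.0%, 20.5% and 18.0% of the counts of the 13 mRNAs in TALE, 18.2%, 13.5% and 15.8% in dCas9 and 19.6%, 17.0% and 17.5% in untreated libraries. It was highest in TALE replicate 2, where the mitochondrial share was lowest, and lowest in dCas9 replicate 2, where it was highest. MT-CO3 took 10.1% in the former and 7.27% in the latter. MT-ND4 took 12.8% and 16.4% in the same libraries, and MT-ND5 6.29% and 8.41%. Since the parts of a whole sum to a fixed total, these shares are not independent of each other, and they are given as a description over 9 libraries.

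Between groups, most shares overlapped. The share of MT-ND6 was higher in all dCas9 than in all untreated libraries (0.762% ± 0.149 against 0.554% ± 0.0285, SD, n = 3 each). The share of MT-CYB was lower in all dCas9 libraries (4.51% ± 0.157 against 4.74% ± 0.0396). MT-ND5 took a smaller share in all TALE than in all dCas9 libraries (6.67% ± 0.405 against 7.92% ± 0.528). No share of the 13 separated TALE from untreated libraries. With 3 libraries against 3, ranges can separate by chance, and 13 shares were looked at in 3 pairs of groups. The make-up of the mRNAs was not tested further.

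**Figure D4:**
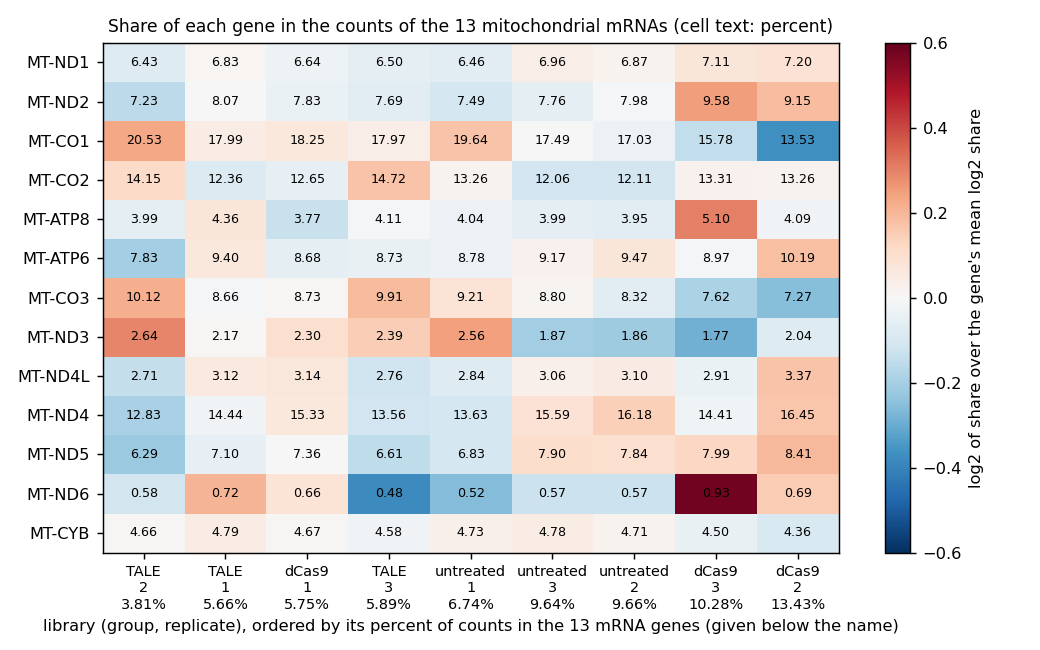
Share of each of the 13 mitochondrial mRNAs in their summed counts, as percent in each cell, with libraries ordered by the percent of all counts in the 13 mRNAs. Colour is the log2 ratio of a share to the mean of that gene over the libraries. The MT-CO1 share is 20.5% in the library at the left end and 13.5% in the library at the right end.

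The tRNAs carry amino acids to the mitochondrial ribosome and were rare in these libraries, with most of their counts from a few genes. Reads over a tRNA gene can stem from the mature tRNA or from a precursor that still holds it, and the counts do not separate these. MT-TL1 had 15.4, 21.4 and 24.7 CPM in untreated, 12.8, 8.63 and 11.4 CPM in TALE and 16.2, 22.4 and 20.5 CPM in dCas9 libraries. The TALE libraries lay below all 6 others, with a log2 fold change of −0.90 ± 0.19 (SE) against untreated and an adjusted p of 0.234 by edgeR's test. MT-TT had 7.33, 19.6 and 21.4 CPM in untreated, 6.47, 9.56 and 10.4 CPM in TALE and 14.3, 20.0 and 12.5 CPM in dCas9 libraries. MT-TI had 8.99, 11.6 and 14.5 CPM in untreated, 9.21, 5.55 and 9.26 CPM in TALE and 7.88, 24.1 and 18.5 CPM in dCas9 libraries. For MT-TT and MT-TI, untreated replicate 1 lay within the TALE range.

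At the other end, MT-TV had 15 counts in all 9 libraries, MT-TC 11 and MT-TN 2. Both counts of MT-TN were in dCas9 replicate 2, and in each other library a count of 0 allows up to 3 counts, by counting error alone. MT-TM with 20 counts and MT-TE with 46 also missed the filter. No fold change is given for these 5 genes.

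By strand, the 14 plus-strand tRNAs summed to 5982 counts and the 8 minus-strand ones, MT-TQ, MT-TA, MT-TN, MT-TC, MT-TY, MT-TS1, MT-TE and MT-TP, to 1416. Of the minus-strand tRNAs 5 were tested. MT-TP (proline) was the highest of them, at 98.4 CPM per kb. MT-TA (alanine) had 1.83, 3.95 and 3.75 CPM in untreated, 1.08, 1.16 and 0.834 CPM in TALE and 2.04, 3.00 and 1.78 CPM in dCas9 libraries. Its log2 fold change for TALE against untreated, −1.59 ± 0.38 (SE, edgeR), was the furthest from 0 of all mitochondrial genes tested, with an adjusted p of 0.333 and 9 to 32 counts per library. MT-TQ (glutamine), which shares 3 bases with MT-TI on the other strand, had 3.14, 3.21 and 3.03 CPM in untreated, 1.37, 1.16 and 2.50 CPM in TALE and 3.43, 6.52 and 4.96 CPM in dCas9 libraries. The 3 groups did not overlap in either direction for MT-TQ, with TALE lowest and dCas9 highest. These 2 tRNAs and the plus-strand MT-TF and MT-TG were picked for mention after their values were seen.

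MT-TF (phenylalanine), the first gene of the heavy-strand transcript, was the only tested gene with a positive log2 fold change for TALE against untreated (0.56 ± 0.65, SE). It had 2, 8 and 4 counts in untreated, 5, 9 and 12 in TALE and 9, 27 and 16 in dCas9 libraries. MT-TG (glycine) had 10, 14 and 11 counts in untreated, 11, 12 and 6 in TALE and 12, 42 and 41 in dCas9 libraries. Their log2 fold changes for dCas9 against untreated were 1.72 ± 0.59 and 1.29 ± 0.46 (SE), with adjusted p-values of 0.585 and 0.616 by edgeR's test. MT-TF passed the filter on low counts only through the libraries in which it was high, so its values are a description.

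Nuclear genes that serve the mitochondrial genome had list medians near 0 for TALE against untreated. None of the genes on 4 lists, chosen with earlier results of these data known, was called in any contrast at an adjusted p under 0.05 by edgeR's test. Without the filter on low counts 1 gene of these lists was called, COX7B of complex IV, for TALE against untreated. The share of all genes called there was 0.178%. For transcription and replication of mitochondrial DNA, all 19 genes passed the filter, 7 lower and 12 higher in TALE than in untreated libraries, with a median log2 fold change of 0.06. Of the 19, 2 were higher with an unadjusted p under 0.05, against 2.86% of all genes tested. TFAM, which packages the DNA and activates its promoters, had 248 ± 14.5 CPM in untreated, 256 ± 21.6 in TALE and 251 ± 23.7 in dCas9 libraries (SD, n = 3 each). SSBP1, the single-strand binding protein, had 337 ± 14.0, 367 ± 46.7 and 360 ± 86.1 CPM in the same order.

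For processing and stability of mitochondrial RNA, 35 of 35 genes were tested, 9 lower and 26 higher in TALE than in untreated, with a median of 0.07 and 0 genes at an unadjusted p under 0.05. LRPPRC, which binds and stabilises mitochondrial mRNAs, had 543 ± 48.7 CPM in untreated, 570 ± 15.6 in TALE and 500 ± 57.7 in dCas9 libraries. Its partner SLIRP had 146 ± 9.67, 140 ± 33.0 and 152 ± 33.4 CPM. For mitochondrial translation, 31 of 31 genes were tested, 11 lower and 20 higher, with a median of 0.05. Of the 31, 1 was higher with an unadjusted p under 0.05, which is near the 2.86% of all genes tested. TUFM, the elongation factor, had 196 ± 10.7 CPM in untreated, 227 ± 15.9 in TALE and 186 ± 35.1 in dCas9 libraries.

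Of the nuclear genes for subunits of the same respiratory complexes, 39 of 39 were tested. In TALE against untreated 25 were lower and 14 higher, with a median log2 fold change of −0.08, where the mitochondrial mRNAs had −0.86. At an unadjusted p under 0.05, 2 of the 39 were lower and 1 higher, shares near the 4.29% and 2.86% of all genes tested. In dCas9 against untreated 21 were lower and 18 higher, with a median of −0.02. In TALE against dCas9 23 were lower and 16 higher, with a median of −0.06. Their sum was 0.871% to 1.17% of all counts in TALE, 0.910% to 1.12% in dCas9 and 0.998% to 1.03% in untreated libraries, so all 3 ranges overlapped.

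Another class of abundant RNA was followed beside the mitochondrial one, the structural noncoding RNAs coded in the nuclear genome. The list held 13 genes, of which 11 were tested, led by RN7SL1 of the signal recognition particle, RPPH1 of RNase P and RN7SK. They took 5.57%, 7.73% and 7.83% of all counts in untreated, 4.31%, 5.34% and 6.61% in TALE and 8.02%, 4.32% and 6.26% in dCas9 libraries. For TALE against untreated, all 11 had negative log2 fold changes (median −0.50), 1 of them with an unadjusted p under 0.05 against 4.29% of all genes tested, and the smallest adjusted p was 0.585. Over all genes tested the median was 0.00. For TALE against dCas9, 10 were lower and 1 higher, with a median of −0.42. Of the 11, 4 were lower with an unadjusted p under 0.05 by edgeR's test, against 3.79% of all genes tested. The smallest adjusted p there was 0.511. Without the filter on low counts NEAT1 was called for TALE against untreated, where 0.178% of all genes were called. For TALE against dCas9, 4 genes of the list (RN7SK, MALAT1, NEAT1 and SNORA73B) were then called, against 0.186% of all genes. The TALE and untreated ranges of the summed share overlapped. In dCas9 libraries their share was highest in replicate 1 and lowest in replicate 2, the reverse of the mitochondrial mRNAs. The other groups did not show that reversal. In untreated libraries replicate 1 was lowest in both shares, and in TALE libraries replicate 3 was highest in both. The part of these RNAs in the mitochondrial shares was not tested.

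Copies of mitochondrial sequence in the nuclear genome can share reads with the mitochondrial genes. The table had 188 such pseudogenes by symbol, 89 of them with 0 counts in all libraries, and 12 passed the filter. Their sum was 0.0577% to 0.146% of the mitochondrial counts of a library. MTRNR2L2, the highest, had 18.2 ± 7.54 CPM in untreated, 17.4 ± 7.10 in TALE and 42.8 ± 18.3 in dCas9 libraries (SD, n = 3 each). All 12 had their highest group mean in the dCas9 libraries. A filter on low counts favours genes high in 1 group, and the share of all genes tested with that order was not counted. The order is therefore not read as a result. The smallest adjusted p for dCas9 against untreated was 0.358 by edgeR's test. How the authors assigned reads that match both a mitochondrial gene and such a copy is not given in the sources used here, so these values are uncertain.

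The mitochondrial genome also appeared in the MeDIP-seq data, in which DNA is captured by an antibody against 5-methylcytosine. Of 198884 regions in the MeDIP count table, 1 was on chromosome M (chrM:156-16421 as deposited, hg19), and it spanned 16266 bases. In the GRCh37 reference, that interval holds 421 CpG dinucleotides, 2.59 per 100 bases. The authors' peak caller gave 1 peak over nearly the whole molecule in each of the 9 lists, with a fold enrichment of 8.63 to 11.9, the authors' own value per peak. In counts per kilobase the region ranked between the 98.7th and the 99.8th percentile of all regions in each library.

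The region took 0.0819%, 0.272% and 0.155% of the MeDIP counts in untreated replicates 1, 2 and 3, 0.115%, 0.101% and 0.124% in TALE and 0.183%, 0.156% and 0.250% in dCas9 libraries. Group means were 0.169% ± 0.0957 (SD, n = 3), 0.113% ± 0.0113 and 0.196% ± 0.0481. The TALE range lay below the dCas9 range and inside the untreated range. A cell holds many copies of mitochondrial DNA, and a MeDIP count alone does not separate the number of copies from their methylation. Libraries without capture were not analysed here.

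The RNA share of the 37 genes in libraries of the same code was 7.15%, 10.3% and 10.2% in untreated, 6.00%, 4.04% and 6.32% in TALE and 6.15%, 14.0% and 10.8% in dCas9 libraries. The library with the lowest MeDIP share, untreated replicate 1, also had the lowest RNA share of its group. The dCas9 library with the highest RNA share, replicate 2, had the lowest MeDIP share of its group. The labels do not say whether RNA and DNA of the same code came from the same culture, and the relation between the assays was not tested.

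**Figure D5:**
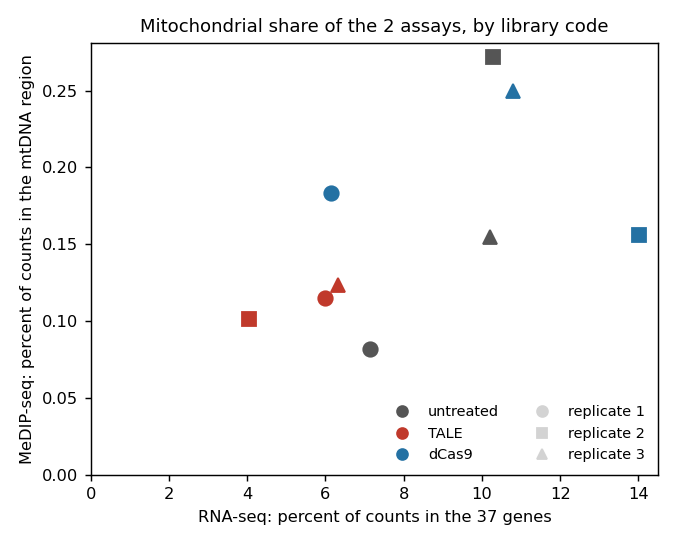
MeDIP-seq counts in the mitochondrial region as percent of all MeDIP counts (y axis) against RNA-seq counts in the 37 mitochondrial genes as percent of all RNA counts (x axis), 1 point per library code, coloured by group and shaped by replicate. The TALE libraries lie together at 4.04% to 6.32% of RNA counts and 0.101% to 0.124% of MeDIP counts, and the other groups are spread more widely on both axes.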

How the data were processed

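RNA-seq and MeDIP-seq were measured in 9 libraries each. The deposited tables hold raw counts per gene symbol and per region, which the authors made from STAR 2.3.0 (RNA) and BWA 0.7.5, Picard, MACS2 and bedtools (MeDIP) on hg19, per the submitters' processing notes. The deposited peak lists give, per the file columns, a score, a fold enrichment ratio and −log10 p and q values, with peaks called per sample. The counter, the annotation, the use of strand and the rules for multi-mapping reads are not given in the sources used here. The RNA kit was one for degraded (FFPE) material and the amplified cDNA was sheared, per the labels' protocols.

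Groups and replicate numbers came from the sample titles. The gene table was fitted in R 4.3.3 with edgeR 4.0.16 (glmQLFit and glmQLFTest, TMM factors, filterByExpr with a minimum of 10 counts, prior count 0.125) in 1 model of group means over all 9 libraries, on the whole table, with Benjamini-Hochberg adjustment and a threshold of 0.05. SE values were derived from the test statistic. CPM are TMM-scaled, while shares are of raw totals. Gene positions, lengths and sequences came from GENCODE v44lift37 and chromosome M of GRCh37. The version of chromosome M that the authors used is not given in the sources used here. The fitting steps were run on simulated counts, with changes placed only in genes outside the mitochondrial genome and the same spread for every gene. That run does not show how the test performs for the mitochondrial genes. Libraries of a group differed beyond sampling noise (chi-square per degree of freedom 2.12 to 54.4), so none was counted as a repeat. The lowest value was for untreated replicates 2 and 3, and the next lowest was 12.9. Such values cannot show whether libraries came from the same RNA or culture. Alternatives were other scaling factors, other filters, fits on fewer groups, a replicate block, DESeq2 1.42.0 and leaving out each library. The comparisons, the named genes (all rRNAs and mRNAs, tRNAs that were called or had the 3 highest and 3 lowest levels per length, minus-strand tRNAs as a group, and up to 3 genes a list by mean CPM) and the gene lists were chosen with earlier results of these data known. The main model did not pair libraries by replicate number. Some marker genes of the lists are not reported here.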

Additional observations from a re-analysis of the deposited data

How the results depend on the processing

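Without a filter on low counts, 19 mitochondrial genes were called for TALE against untreated, 22 for TALE against dCas9 and 1 (MT-ND6) for dCas9 against untreated, among 74, 77 and 89 of 41469 genes called in all; the cause was not tested. The silenced mean against untreated still had 0. Leaving out 1 library at a time gave 0 to 11 called genes for TALE against dCas9, with 11 only without dCas9 replicate 1, where NEAT1 was also called, and 0 in the other 3 contrasts. DESeq2, RLE, upper-quartile and non-mitochondrial factors, at least 10 counts in every library, only the groups of the contrast (run for the 3 pairs of groups) and the replicate block gave 0 in each contrast. The smallest adjusted p for TALE against untreated was 0.0765 to 1.00 over the libraries left out.

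Same-numbered libraries had correlations of deviations between −0.28 and 0.10, and other pairs −0.14 to 0.25. These ranges overlap, and they cannot show whether same-numbered libraries were handled together. With the replicate block the mRNA median for TALE against untreated was −0.78, and 2 values of dCas9 against untreated changed sign, MT-CO3 to −0.010 and MT-TT to 0.046. Leaving out 1 library reversed 13 of the 18 genes followed in that contrast, with ranges of −0.26 to 0.23 for MT-CO3, −0.40 to 0.24 for MT-TT, −0.24 to 0.16 for MT-CO1, −0.23 to 0.10 for MT-TL1, −0.24 to 0.22 for MT-RNR2, −0.11 to 0.54 for MT-ND1, −0.060 to 0.57 for MT-CO2, −0.19 to 0.54 for MT-ATP6, −0.19 to 0.39 for MT-ND3, −0.15 to 0.54 for MT-ND4L, −0.19 to 0.49 for MT-ND4, −0.11 to 0.58 for MT-ND5 and −0.19 to 0.36 for MT-CYB. Among the genes followed for TALE against untreated and TALE against dCas9, 0 reversed under any alternative. Depth limits the tRNAs, several of which had under 10 counts in a library.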
